A study of Mus musculus with 6 samples.

Results

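The 36 genes described here are the heat shock and unfolded protein response genes of injured mouse muscle: 24 genes of the endoplasmic reticulum (ER) response and 12 cytosolic or mitochondrial chaperone genes. They were chosen by symbol, as every row of the count table whose gene symbol is on the list, out of 32245 different symbols. All 36 were found, in 37 rows, because Ddit3 has 2 overlapping gene models. No measured value entered the choice of genes. The cells came from the tibialis anterior, a shin muscle, of both hindlimbs of wildtype mice. They were mononucleated cells sorted to exclude those stained by propidium iodide, a dye that enters dead cells, so muscle fibres were outside the sort. There were 6 groups with 1 library each: uninjured muscle (day 0), muscle 1 day and muscle 3 days after injury with cardiotoxin, a snake venom toxin that lyses fibres, each collected at zeitgeber time 4 (ZT4) and at ZT16. Zeitgeber time counts hours from lights on, so ZT4 lies in the light and ZT16 in the dark of a standard cycle. All groups shared the wildtype genotype and the same preparation, and the labels used here give neither age nor sex nor how many mice were pooled per library.

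A cell watches over protein folding in each compartment separately. When unfolded proteins accumulate in the ER, sensors in its membrane switch on the transcription factors XBP1, ATF4 and ATF6, which raise ER chaperones, disulfide isomerases and the machinery that returns misfolded proteins to the cytosol for degradation. ATF4 is also the output of the integrated stress response, through which amino acid shortage and other stresses raise genes of amino acid supply such as Asns. In the cytosol and nucleus, the factor HSF1 raises the heat shock proteins, among them the strongly inducible Hsp70 copies Hspa1a and Hspa1b. Hspa1a, Hspa1b and other stress genes are also known to rise when tissue is digested into single cells, before the RNA is fixed.

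The libraries held 8626 to 14079 barcodes, and 58469 cells were kept after filters. The kept cells of the 6 libraries had median depths of 3172 to 11128 unique molecules (UMIs), deepest on day 3. Between 21 and 65 barcodes occurred in both libraries of any pair. Cells were clustered with the member genes left out, and 15 classes reached 50 cells in at least 1 library. A class name such as endothelial stands for cells like that type by its markers, and 1 class is named only by its leading gene, Apln, with endothelial markers highest in it. For most classes their own marker list was the highest of all lists in every library. Exceptions were B cells and resident macrophages, in which markers shared with dendritic cells or monocytes summed higher, tenocytes, in which fibro-adipogenic markers did, T cells on day 0 and on day 3 at ZT4, and myogenic cells of day 0, in which mature muscle markers did. Mature muscle markers summed to 3065 to 12675 CPM in the other classes of day 0, to at most 331 CPM on day 1 and to at most 2731 CPM on day 3; their part in the results was not tested.

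Levels are UMIs of a gene in all cells of a class, divided by all UMIs of that class in the library, as CPM, the counts of a gene scaled to a total of 1e6. A log2 ratio of 1 is a doubling, and the interval after a ratio is a 95% interval for counting error only. A gene is called higher or lower where the ratio reached 1.5-fold, and only genes with at least 30 UMIs in both libraries together are measured in a comparison. Comparisons between days were made at ZT4 and at ZT16 apart, and a call needed both. With 1 library per group there is no replicate check, no p-value is given, and the classes of a library share its handling, so agreement between classes is not replication. Each count of members is read against the background, which is the percentage of all measured genes called in that direction. The median log2 ratio over all genes lay between -0.29, in fibro-adipogenic cells on day 1 against day 0, and 0.59, in neutrophils on day 3 against day 1.

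The summed level of the 24 ER genes was highest in the day 1 monocyte-macrophages at ZT16, with 6756 CPM. At ZT4 it was 5837 CPM in these cells, which replace neutrophils in injured muscle. In the 70 resident macrophages of day 1 at ZT16 it was 6698 CPM. Fibro-adipogenic cells, the connective tissue progenitors of muscle, held 6355 and 5111 CPM on day 1. Mural cells, the pericytes and smooth muscle around vessels, held 5173 and 6126 CPM, and the Apln-led cluster 5248 and 5766 CPM. Among uninjured classes, glial cells at ZT16 reached 6005 CPM. Other uninjured classes lay lower, for example endothelial cells with 2747 and 2855 CPM. Myogenic cells, which on day 0 are mostly the muscle stem cells, had 2454 and 2421 CPM. The lowest sums were those of mature muscle droplets, 351 to 667 CPM. Neutrophils had 1640 to 2444 CPM, and B and T cells of day 0 at ZT4 had 1612 and 1829 CPM.

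The 12 cytosolic genes had another order. Uninjured mural and endothelial cells at ZT16 had 14181 and 12624 CPM, the Apln-led cluster on day 1 had 11685 and 12232 CPM, and day 3 myogenic cells had 11021 and 12073 CPM. Neutrophils were again low, at 1547 to 2628 CPM. Monocyte-macrophages, at the top for the ER genes, had only 4588 and 6143 CPM of cytosolic genes on day 1.

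**Figure D1:**
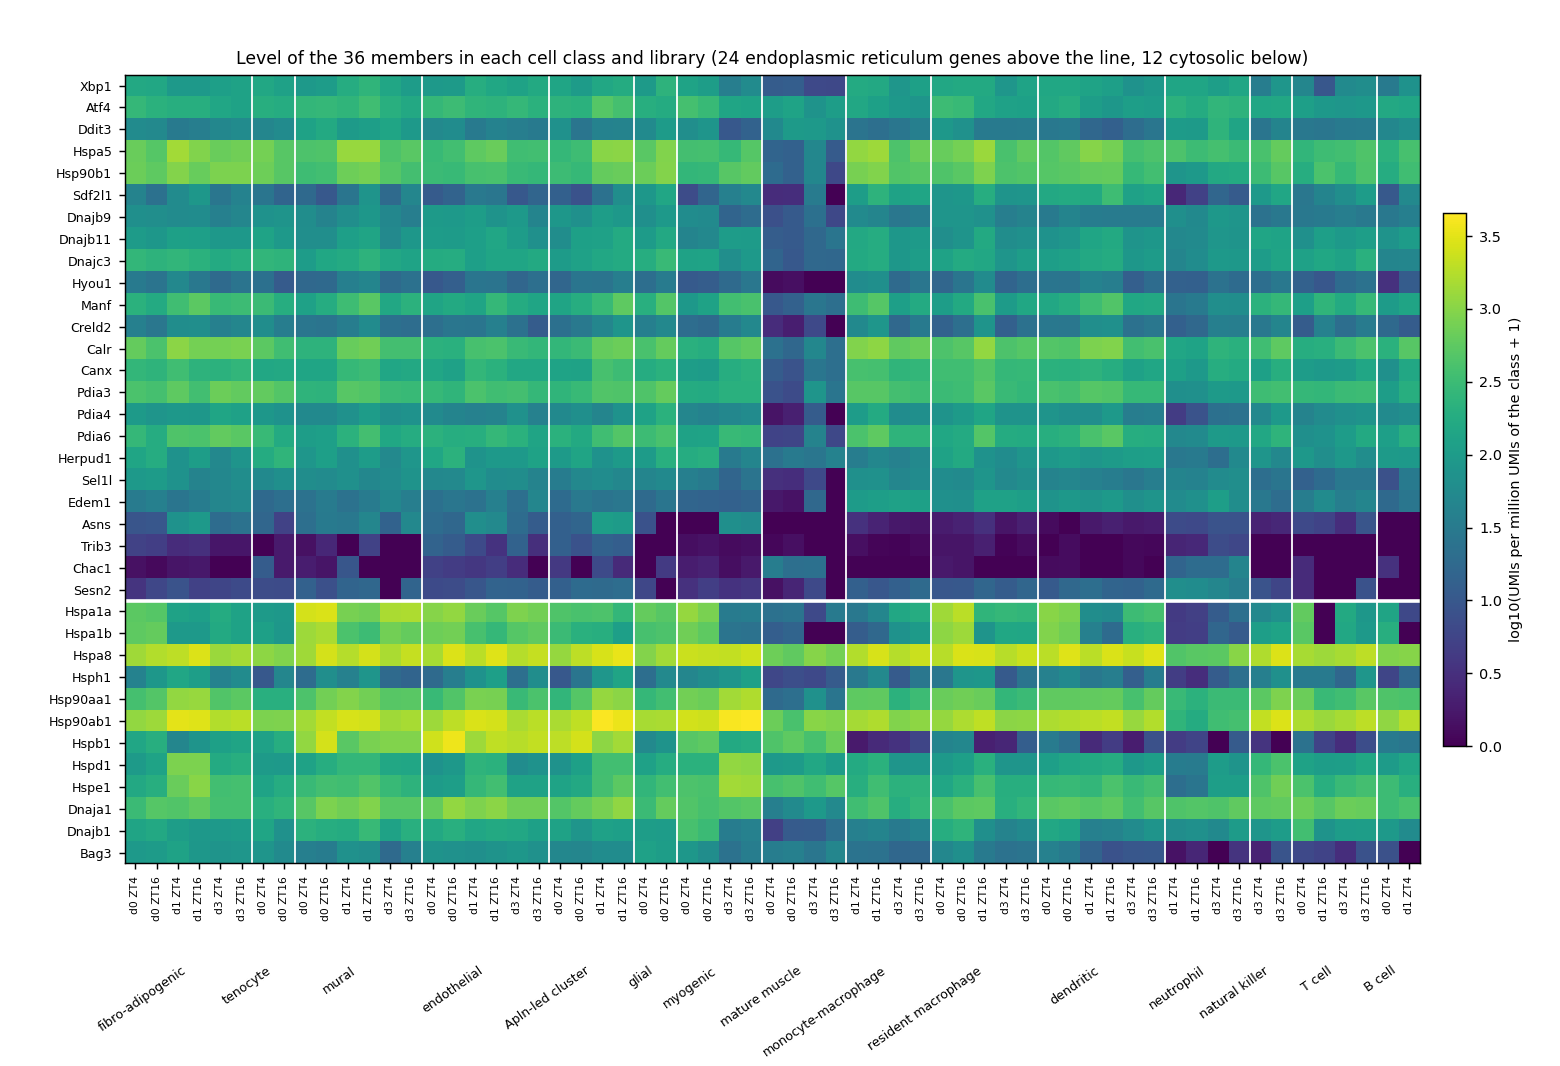
Level of each of the 36 genes (rows, ER genes above the line and cytosolic genes below) in each class and library with at least 50 cells (columns), as log10 of CPM plus 1. Low levels are dark and high levels bright. Mature muscle columns are the darkest for most ER genes, and Hspa1a and Hspa1b are bright in the day 0 columns of most classes.

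Single members were spread over classes unevenly. Hspa5 encodes BiP, the main ER Hsp70 and a sensor of unfolded protein. It reached 1428 CPM in day 1 fibro-adipogenic cells at ZT4 and 1309 CPM in day 1 monocyte-macrophages at ZT16. Pdia4, a disulfide isomerase, was highest in day 0 glial cells at ZT16 with 219 CPM. Sel1l, a subunit of the ER degradation complex, was highest in day 0 fibro-adipogenic cells with 95.4 and 101 CPM. Edem1, which hands misfolded glycoproteins to degradation, reached 122 CPM in day 3 resident macrophages at ZT4 and 121 CPM in day 3 monocyte-macrophages at both times. Sesn2, a stress-induced regulator of nutrient signalling, was highest in day 1 neutrophils with 64.2 and 58.4 CPM. Chac1, an ATF4 target that breaks down glutathione, was low throughout, with 34.2 CPM in day 0 mature muscle at ZT4 and 43.4 CPM in day 3 neutrophils at ZT16 as its highest levels. Trib3, a pseudokinase induced by ATF4 and CHOP, stayed at or under 13.5 CPM in all classes. Among cytosolic genes, Hspb1, a small heat shock protein, was at 0.842 and 1.71 CPM in day 1 monocyte-macrophages and highest, at 3659 CPM, in day 0 endothelial cells at ZT16. Hspa1a and Hspa1b are near-identical copies on chromosome 17 (34969190 to 34972156 and 34956436 to 34959238, GRCm38), so reads may have been shared or lost between them, and their separate values are uncertain. Ddit3, on chromosome 10 (127290774 to 127296288), overlaps Mars on the other strand, and Manf shares exon bases with Rbm15b on the same strand, so their counts are less certain too.

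The ER stress element is the promoter motif through which ATF6 and XBP1 raise ER chaperones. The members that hold it are shown because 6 of these 7 genes were called higher together in mural cells on day 1. There 7.82% of all genes were called higher. Xbp1, Sdf2l1, Dnajb11 and Pdia3, whose searched promoters do not hold the element, were called higher there as well. The part of the element in these calls was not tested. The element was searched as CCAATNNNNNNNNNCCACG on both strands, from 250 bases before to 50 bases after each gene's start in RefSeq (GRCm38.p6). A promoter was at hand for 31 members, 22 ER and 9 cytosolic, and none for Hspa8, Hsp90aa1, Hsp90ab1, Manf and Hyou1. The element was in 7 of the 22 ER genes, in 0 of the 9 cytosolic genes and in 37 of all 27025 genes (0.137%, and 0.119% of promoters). Capitals mark the fixed letters of the element, each line reads 5′ to 3′ on the gene's own strand, and an element on the opposite strand reads CGTGG to ATTGG. A match of letters is a description and not a shown binding site. The Hspa5 stretch overlaps an Hspa5 exon of the annotation.
Hspa5, chr2:34772020-34772048, plus strand: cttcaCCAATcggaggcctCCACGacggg
Hsp90b1, chr10:86705633-86705661, minus strand: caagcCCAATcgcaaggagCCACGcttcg
Hsp90b1, chr10:86705528-86705556, minus strand: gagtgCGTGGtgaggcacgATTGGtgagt
Calr, chr8:84847070-84847098, minus strand: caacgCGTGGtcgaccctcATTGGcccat
Canx, chr11:50325795-50325823, minus strand: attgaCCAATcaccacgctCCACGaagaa
Creld2, chr15:88819515-88819543, plus strand: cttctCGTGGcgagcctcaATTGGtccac
Dnajc3, chr14:118937822-118937850, plus strand: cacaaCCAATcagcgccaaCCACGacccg
Pdia6, chr12:17266486-17266514, plus strand: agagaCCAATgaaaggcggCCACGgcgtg

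On the first day after injury, the ER chaperones were higher in the vessel wall and stroma that could be followed from day 0. Over 5 classes, 41 of 108 measured pairs of an ER gene and a class were called higher on day 1 and 6 lower, against a background of 11.3% of all genes higher and 18.2% lower. Calr was called higher in all 5 classes. Hspa5, Manf and Pdia6 were each called higher in 4 of them.

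Mural cells showed 12 of 22 measured ER genes higher and none lower, with backgrounds of 7.82% and 13.2%. The median log2 ratio of the ER genes was 0.92, and that of all genes was -0.09. Hspa5 was at 428 and 443 CPM on day 0 at ZT4 and ZT16, at 1225 and 1255 CPM on day 1, and at 424 and 523 CPM on day 3. Its day 1 levels were above all 4 others, with log2 ratios to day 0 of 1.52 (1.35 to 1.68) and 1.5 (1.38 to 1.63). Calr, the lectin chaperone calreticulin, went from 228 CPM at both times to 646 and 736 CPM, and was at 368 CPM at both times on day 3. Manf, a secreted ER protein that binds BiP, went from 123 and 181 CPM to 329 and 531 CPM. Its day 1 levels were again above those of day 0 at both times, by log2 ratios of 1.42 (1.08 to 1.73) and 1.55 (1.36 to 1.74). The others called higher were Hyou1 and Hsp90b1, the ER forms of Hsp110 and Hsp90, the BiP cochaperones Sdf2l1, Dnajb11 and Dnajc3, the lectin chaperone Canx, the isomerases Pdia3 and Pdia6, and Xbp1. Xbp1 itself was at 90.4 and 103 CPM on day 0 and at 184 and 244 CPM on day 1. Sdf2l1 was called from 9 UMIs at ZT4, where its interval ran from -0.62 to 1.71. With every cell thinned to 1000 UMIs, 7 of 15 measured ER genes were called. The day 1 mural class held only 61 and 112 cells. Its mural markers summed to 12226 and 12755 CPM, below the 31453 and 26515 CPM of day 0, and at ZT4 it carried 4260 CPM of neutrophil markers; the part of either in the result was not tested.

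**Figure D2:**
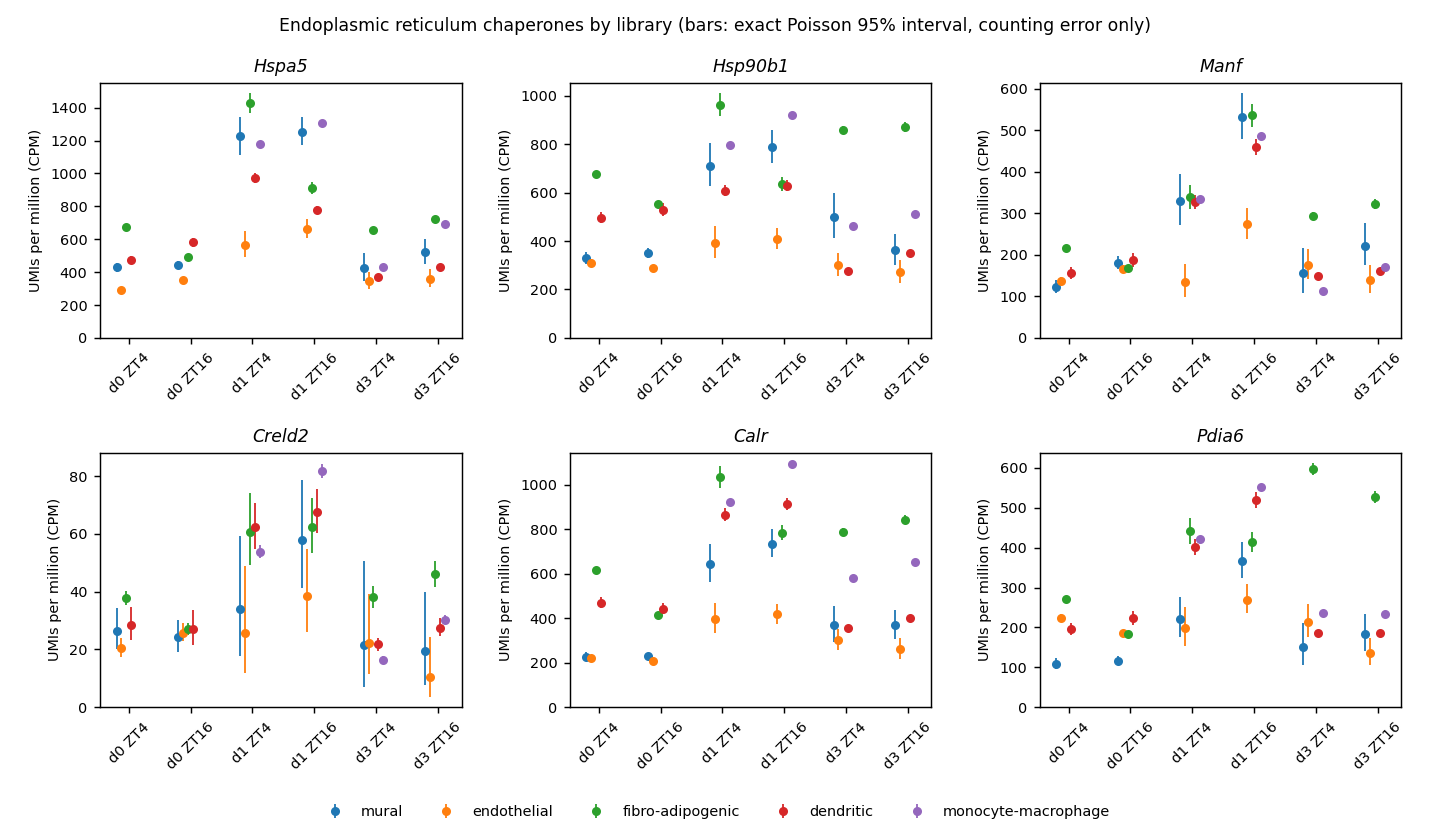
Level in CPM of 6 ER genes (panels) in 5 classes (coloured points) over the libraries, ZT4 and ZT16 of each day. Bars are exact Poisson 95% intervals for counting error. Mural Hspa5 stands at 1225 and 1255 CPM on day 1 between 428 and 443 CPM on day 0 and 424 and 523 CPM on day 3, and monocyte-macrophages go from 1176 and 1309 CPM on day 1 to 431 and 691 CPM on day 3.

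In endothelial cells 8 of 24 ER genes were higher and 2 lower, against 6.35% and 12.8% of all genes. Hspa5 was at 289 and 350.4 CPM on day 0, 567 and 663 CPM on day 1, and 345 and 359 CPM on day 3, so that the day 1 levels were the highest. Xbp1, Sdf2l1, Hyou1, Calr, Canx, Asns and Sesn2 were the others called higher. Herpud1, an ER membrane protein of the degradation complex, fell from 143 and 223 CPM to 74.4 and 94.5 CPM, and Trib3 was called lower from 2 UMIs on day 1 at each time. The Apln-led cluster had 10 of 18 ER genes higher and none lower (backgrounds 15.2% and 12.2%), with Hspa5 at 274 and 336 CPM on day 0 and at 1030.4 and 1041 CPM on day 1. Of the 5 classes, it was the one in which Atf4 was called higher, from 232 and 213 CPM to 489 and 378 CPM. Dendritic cells had Dnajb11, Manf, Creld2, Calr and Pdia6 higher of 21 measured, and Ddit3 lower (backgrounds 10.5% and 16.6%). Creld2, an ER protein induced together with Manf, went there from 28.5 and 27.1 CPM to 62.3 and 67.7 CPM. Most day 0 cells were in cluster 2 of the endothelial class and in cluster 26 of the dendritic class, and most day 1 cells in clusters 11 and 7. Cluster 11 had the lowest depth of all clusters. It held 86 of the 135 and 179 of the 273 day 1 endothelial cells. With cells thinned to 1000 UMIs, 4 of 19 endothelial ER genes were called higher.

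Fibro-adipogenic cells had 6 of 23 ER genes higher and 3 lower, against 16.5% and 29.5% of all genes. Higher were Hspa5, Manf, Creld2, Calr, Pdia6 and Asns. Hspa5 was at 671 and 492 CPM on day 0, 1428 and 909 CPM on day 1, and 656 and 722 CPM on day 3. Xbp1 went the other way than in mural and endothelial cells, from 159 and 154 CPM to 94.3 and 90.9 CPM, with log2 ratios of -0.75 (-1.0 to -0.52) and -0.76 (-0.95 to -0.57). Herpud1 and Trib3 were the other 2 called lower. The clusters that made up this class were not the same on both days: cluster 20, led by Cxcl5 and Postn, held 58 and 91 of the day 1 cells, and clusters 8, 13 and 18 held most of day 0. Without cells that held G2M genes, which mark dividing cells, 3 ER genes were called higher and 1 lower.

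Asns, asparagine synthetase and a classical ATF4 target, had some of the largest ratios among the ER and integrated stress genes. In fibro-adipogenic cells it was at 8.10 and 8.96 CPM on day 0, 72.2 and 93.5 CPM on day 1, and 18.9 and 23.1 CPM on day 3. The day 1 ratios were 3.16 (2.82 to 3.48) and 3.38 (3.12 to 3.65). The Apln-led cluster went from 12 and 14.4 CPM to 109 and 102 CPM, from only 4 UMIs in each day 0 library. Endothelial cells went from 18.9 and 15.6 CPM to 63.0 and 51.0 CPM. The ATF4 motif TGATGNAA, searched on both strands, was in the promoters of Asns, Chac1, Herpud1 and Trib3 of the 22 ER genes, in 0 of the 9 cytosolic genes and in 1219 of 27025 genes (4.51%, and 3.97% of promoters). Asns and Herpud1 are shown because both hold these letters and they moved in opposite directions in fibro-adipogenic and endothelial cells.
Asns, chr6:7693220-7693237, minus strand, within an exon of the gene: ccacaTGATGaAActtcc
Herpud1, chr8:94386312-94386329, plus strand, motif on the opposite strand: gcgggTTgCATCAgcccg

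Other genes of these pathways, from lists chosen by function, were compared in the same way. Of further integrated stress response genes, 16 of 31 measured were higher in fibro-adipogenic cells on day 1 and 5 lower (backgrounds 16.5% and 29.5%). The serine synthesis enzymes Psat1, Phgdh and Psph were among the higher ones. In mural cells 11 of 43 other ER genes were higher and none lower (7.82% and 13.2%), among them P4hb, Txndc5, Sec61a1 and Serpinh1. There 10 of 22 other stress genes were higher. In endothelial cells only 4 of 47 other ER genes were higher, near the background of 6.35%.

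By day 3, ER genes were lower than on day 1 in the monocyte-macrophages and dendritic cells. In monocyte-macrophages 11 of 22 ER genes were lower on day 3 than on day 1 and none higher, against 13.1% of all genes lower and 21.3% higher. Over the 3 infiltrating classes the ER count was 22 lower and 9 higher of 65, with backgrounds of 8.85% and 21.9%, and 25 lower and 2 higher when ratios were centred on the median over all genes. Manf went from 335 and 485 CPM to 114 and 172 CPM, with log2 ratios of -1.55 (-1.60 to -1.51) and -1.5 (-1.54 to -1.46). Hyou1 went from 58.6 and 66.3 CPM to 17.6 and 26.6 CPM, and Creld2 from 53.9 and 81.8 CPM to 16.5 and 30.3 CPM. Hspa5 went from 1176 and 1309 CPM to 431 and 691 CPM. Every day 3 level of these genes was below both day 1 levels. The others called lower were Hsp90b1, Dnajb11, Dnajc3, Calr, Pdia4, Pdia6 and Asns, and Asns never passed 2.31 CPM. Of the other ER genes on the list, 12 of 49 were lower and 2 higher.

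The clusters in this class changed between the days. On day 1 most cells were in cluster 0, led by Arg1, and cluster 5, led by Dmkn and Vcan, and on day 3 in cluster 1, led by Gpnmb, and cluster 6, led by Cxcl10. Within cluster 5 the summed ER level was 5537 and 6585 CPM on day 1 and 2709 and 3534 CPM on day 3. Within cluster 0 it was 6033 and 6807 CPM on day 1 and 4351 and 6024.5 CPM on day 3, where it held 108 and 68 cells, so that the ZT16 difference was smaller there. Dendritic cells had the same direction, with 11 of 21 ER genes lower and none higher (backgrounds 7.49% and 11.1%). Hspa5 there went from 973 and 779 CPM to 371 and 429 CPM.

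Neutrophils had the opposite direction, with 9 of 22 ER genes higher from day 1 to day 3 and none lower, but 36% of all genes were also called higher there and the median over all genes was 0.59. Centred on that median, 2 ER genes were called higher. Manf went from 25.4 and 31.3 CPM to 62.6 and 61.2 CPM. Of the cytosolic genes 5 of 11 were higher. Neutrophil markers in this class summed to 78957 and 69958 CPM on day 1 and to 28373 and 23384 CPM on day 3, when the class held 282 and 171 cells; their part in the result was not tested.

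Against uninjured muscle, the day 3 comparison over 7 classes gave 22 ER pairs higher and 17 lower of 147, near the backgrounds of 11.9% and 15.3%. Without mitochondrial and ribosomal protein genes in the totals they were 27 and 13. The myogenic cells held 10 of the 22 and 5 of the 17, of 22 genes measured (backgrounds 24.4% and 27.4%). ER chaperones were higher there: Manf at 89.5 and 126 CPM on day 0 was at 350.2 and 410.0 CPM on day 3, and Calr at 205 and 190.1 CPM was at 495 and 584 CPM. Sdf2l1 went from 6.08 and 14.5 CPM to 37.7 and 50.7 CPM. Hsp90b1, Dnajb11, Hyou1, Creld2, Canx and Pdia6 were called higher as well. Asns had 0 UMIs in both day 0 myogenic libraries and 64.3 and 56.2 CPM on day 3, which is at least 113-fold and at least 147-fold higher when 3 UMIs per library are taken as the floor. The 5 called lower were no larger a share of the 22 measured genes than the background of 27.4%. The transcription factors were among them. Xbp1 went from 130.4 and 106 CPM to 35.1 and 57.2 CPM and Atf4 from 375 and 291 CPM to 139 and 129 CPM. Ddit3, which encodes the factor CHOP, went from 62.3 and 79.4 CPM to 9.06 and 12.9 CPM. Herpud1, at 184 and 201 CPM, fell to 31.4 and 44.8 CPM, and Dnajb9, an ER cochaperone and XBP1 target, from 58.9 and 55.1 CPM to 14.0 and 18.5 CPM. Hspa5 was not called, at 371 and 375 CPM on day 0 and 281 and 490 CPM on day 3.

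Several measures moved with the myogenic comparison. Cluster 12, led by Nppc, Chodl and Pax7, held 893 of the 897 day 0 cells at ZT4 and 967 of the 1041 at ZT16. Clusters 21 and 30 held 39 and 35 of the day 0 cells at ZT16. On day 3 most cells were in clusters 21, 30 and 34. Of the day 0 cells, 5 of 897 and 63 of 1041 had at least 3 UMIs of G2M genes. Without those cells, day 0 Manf at ZT16 was at 105.6 in place of 126.45 CPM. Of the day 3 cells, 625 of 718 and 436 of 505 had at least 3 UMIs of G2M genes. In the 93 and 69 cells without them, which had a mean of 11837 and 11458 UMIs where all cells had 39048 and 37899, Manf was at 153 and 140.4 CPM and Hsp90b1 at 228 and 237 CPM. With such cells left out on both days, no ER gene was called higher and 7 were called lower. The log2 ratio of Hsp90b1 was then -0.12 against 1.02 over all cells, that of Creld2 0.0467 against 1.15, of Hyou1 0.22 against 1.05, of Pdia6 0.38 against 1.11, of Calr 0.5 against 1.45 and of Manf 0.6 against 1.83. Of the cytosolic genes, 2 were called higher in place of 5. The 18 genes listed as responding to tissue dissociation, such as Fos and Egr1, summed to 47672 and 43178 CPM in day 0 myogenic cells and to 1894 and 2179 CPM on day 3, with 17 of 18 lower. The part of cell division, depth and the dissociation response in the lower Ddit3, Atf4, Xbp1 and Herpud1 was not tested.

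Resident macrophages on day 3 had 5 of at most 24 ER genes lower, Atf4, Ddit3, Dnajb9, Dnajc3 and Herpud1, with a background of 17.1%. Edem1 was higher, from 67.0 and 64.9 CPM to 122 and 110.0 CPM. Atf4 went from 321 and 289 CPM to 123 and 119 CPM. The dissociation genes fell there as well, 14 of 18, from 32666 and 33728 CPM to 13376 and 15029 CPM. Cluster 14, led by Cd209f and Lyve1, made up the day 0 class and cluster 10, led by Ccl8 and Cbr2, that of day 3. In fibro-adipogenic cells Pdia3, Pdia6 and Asns were higher on day 3 (background 13.4%) and Atf4, Herpud1, Sel1l and Trib3 lower (22.6%). Pdia6 went from 270.5 and 183 CPM to 598 and 526 CPM. Dendritic cells had Xbp1, Hsp90b1 and Pdia4 lower, with 13.2% of all genes lower. The counts in fibro-adipogenic and dendritic cells are of at most 24 ER genes. They are not read as differences from all genes. Over the 7 classes together, 14.97% of measured ER pairs were higher and 11.56% lower, near the backgrounds of 11.85% and 15.35%. In mature muscle droplets Dnajb11, Manf, Canx, Pdia3 and Pdia6 of 15 measured were higher (background 12.8%), from low levels in 61 and 74 droplets. In mural cells Calr was higher of 21 ER genes measured (background 6.54%), in endothelial cells Hyou1 and Sesn2 of 24 (5.30%), and none was lower in either class.

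**Figure D3:**
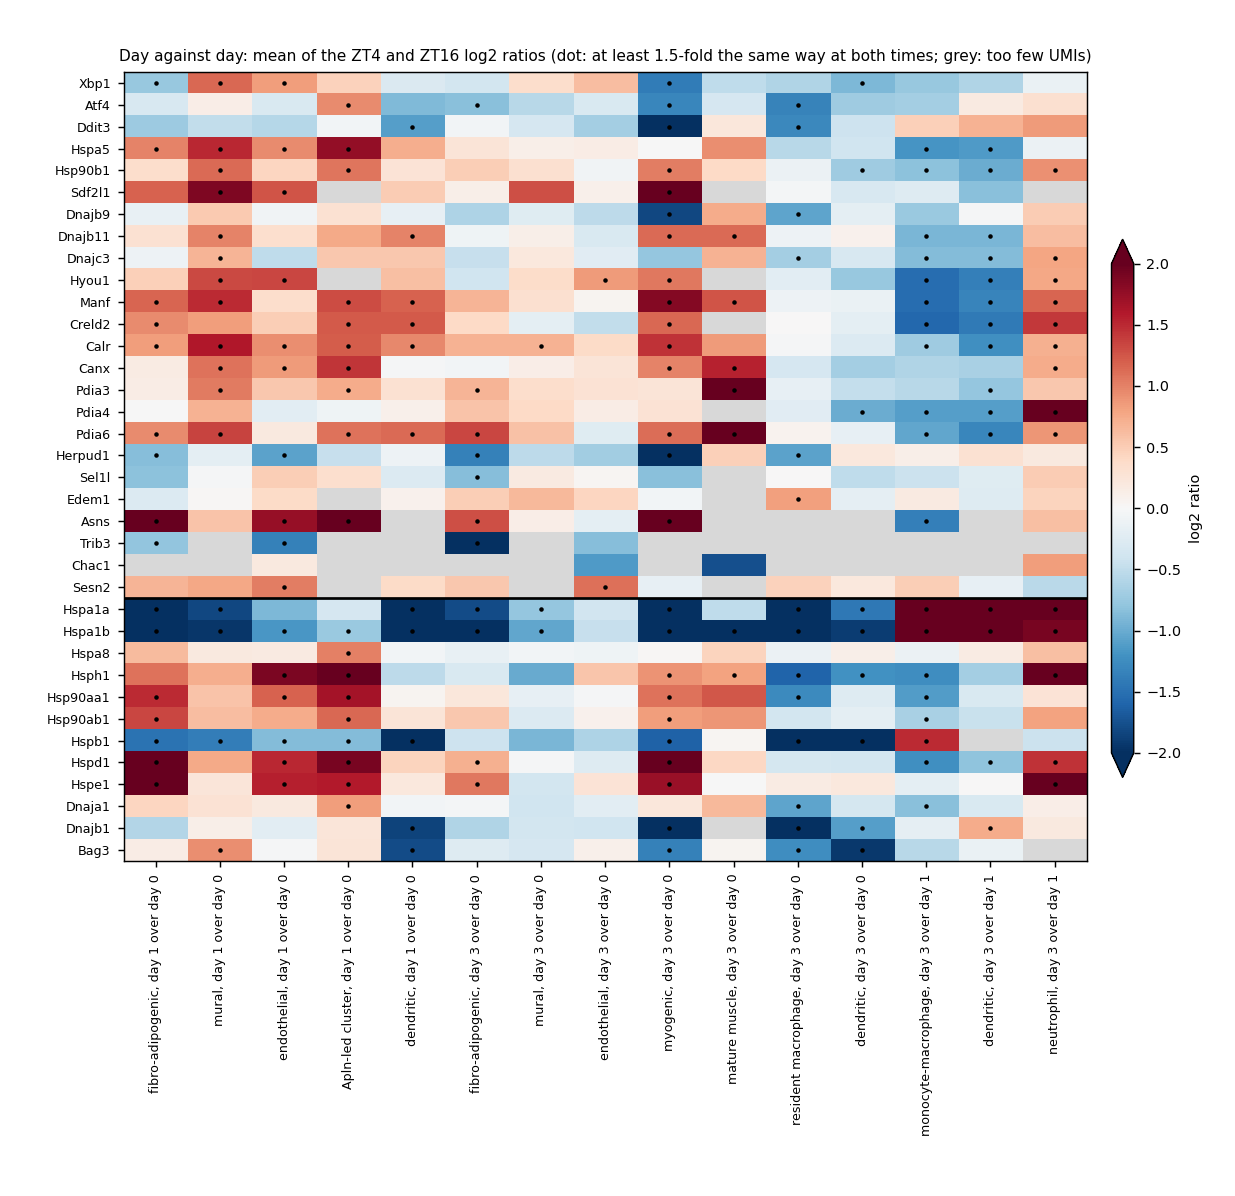
Mean of the ZT4 and ZT16 log2 ratios for each gene (rows) in each class and day comparison (columns), red higher and blue lower on the later day; dots mark genes past 1.5-fold the same way at both times, and grey cells had too few UMIs. Dots on red run down the ER rows of the day 1 mural and Apln-led columns, and dots on blue down those of the day 3 over day 1 monocyte-macrophage and dendritic columns.

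Among the cytosolic genes, the inducible Hsp70 copies and Hspb1 were called lower after injury in several classes, and Hsp90 genes and the mitochondrial pair Hspd1 and Hspe1 higher in some. On day 1, 16 of 60 cytosolic pairs were higher and 15 lower, with the backgrounds of 11.3% and 18.2% given above. Hspa1b and Hspb1 were called lower in all 5 classes and Hspa1a in 3. In the Apln-led cluster Hspa1a was at 439 and 408 CPM on day 0 and at 427 and 264 CPM on day 1, not called. Hsp90aa1, Hspd1 and Hspe1 were called higher in the fibro-adipogenic, endothelial and Apln-led classes, and Hsp90ab1 in the first and last of these. On day 3 against day 0, 8 of 83 were higher and 24 lower (11.9% and 15.3%). Hspa1b was then called lower in 6 of 7 classes, Hspa1a in 5 and Hspb1 in 3.

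The dendritic class was mostly cluster 26 on day 0 and cluster 7 on days 1 and 3. In this class Hspa1a went from 1022 and 858 CPM on day 0 to 61.3 and 56.1 CPM on day 1 and was at 320.2 and 381 CPM on day 3. Its cochaperone Dnajb1 went from 156 and 131 CPM to 37.8 and 41.7 CPM, and Bag3, a partner of Hsp70 in autophagy, was lower as well. The dissociation list was lower in 17 of 18 genes there on day 1 and higher in 13 of 18 from day 1 to day 3. Mural Hspa1a went from 2602 and 2828 CPM to 799 and 729 CPM on day 1 and was at 1572 and 1614 CPM on day 3, while 4 of 18 dissociation genes were lower on day 1. Bag3 in mural cells was called higher, from 36.4 and 33.8 CPM to 70.9 and 62.1 CPM. In myogenic cells Hspa1a went from 1182 and 835 CPM on day 0 to 32.2 and 34.6 CPM on day 3, Dnajb1 from 393 and 314 CPM to 33.1 and 39.0 CPM, and Bag3 from 84.8 and 60.9 CPM to 23.3 and 34.2 CPM. Resident macrophages had 8 of 12 cytosolic genes lower on day 3 (background 17.1%), among them Hsph1 and Hsp90aa1 besides Hspa1a and Hspa1b. In monocyte-macrophages Hspa1a and Hspa1b were instead higher on day 3 than on day 1, Hspa1a at 28.4 and 47.2 CPM and then at 155 and 185 CPM, while 2 of 18 dissociation genes were lower and none higher. Over the infiltrating classes 11 of 34 cytosolic pairs were higher on day 3 and 6 lower (21.9% and 8.85%). The part of the dissociation response in the Hspa1a and Hspa1b values was not tested.

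**Figure D4:**
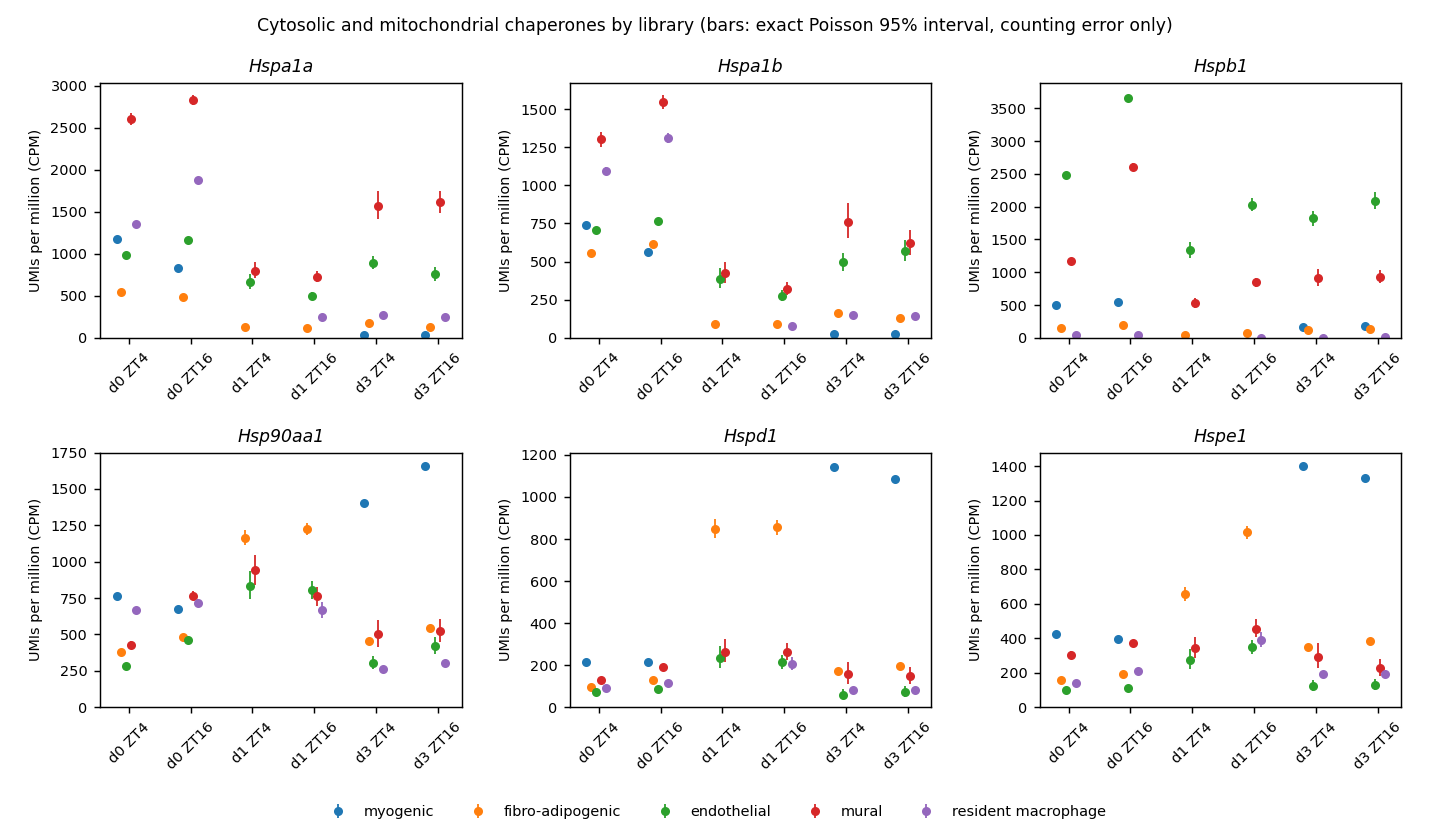
Level in CPM of 6 cytosolic or mitochondrial chaperone genes (panels) in 5 classes (coloured points) over the libraries, ZT4 and ZT16 of each day. Bars are exact Poisson 95% intervals for counting error. Myogenic Hspa1a goes from 1182 and 835 CPM on day 0 to 32.2 and 34.6 CPM on day 3, while myogenic Hspd1 goes from 213 and 217 CPM to 1143 and 1084 CPM.

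Hspd1 and Hspe1 encode the mitochondrial chaperonin and its lid, and their genes lie head to head on chromosome 1 (55077835 to 55088243 and 55088132 to 55091307, GRCm38). In fibro-adipogenic cells Hspd1 was at 96.0 and 130.1 CPM on day 0, 849 and 855 CPM on day 1, and 171 and 196 CPM on day 3. Its day 1 ratios were 3.14 (3.05 to 3.24) and 2.72 (2.64 to 2.79). Hspe1 in the same cells went from 160.2 and 194 CPM to 659 and 1016 CPM and then to 350.3 and 382 CPM. Both were also called higher on day 1 in endothelial cells and the Apln-led cluster, and on day 3 in myogenic cells, where Hspd1 went from 213 and 217 CPM to 1143 and 1084 CPM. In day 3 myogenic cells without G2M genes Hspd1 was at 336 and 297 CPM. In mural cells neither was called. The Hsp90 genes moved with them in fibro-adipogenic cells, Hsp90aa1 from 379 and 480.1 CPM to 1165 and 1224 CPM and Hsp90ab1 from 1169 and 1302 CPM to 3205 and 3027 CPM. Of 41 further heat shock and chaperonin genes, 23 were higher and 5 lower in fibro-adipogenic cells on day 1 (backgrounds 16.5% and 29.5%). Hspa9 and the subunits Cct2 to Cct8 were among those called. In myogenic cells on day 3, 24 were higher and 8 lower (24.4% and 27.4%).

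The heat shock element, searched on both strands as GAANNTTCNNGAA or TTCNNGAANNTTC, which can overlap, was in 3 of the 9 cytosolic genes, in 0 of the 22 ER genes and in 179 of 27025 genes (0.662%, and 0.603% of promoters). Only exact matches were counted, so no match, as in Hspa1a and Hspa1b, does not show that a gene lacks such an element. The 3 genes with a match were Hspd1, Hspe1 and Hsph1. They are shown because Hspd1 and Hspe1 share the same bases, read here on opposite strands, and because Hsph1 differed most often by time of day. Hspd1 had more than 1 start in RefSeq. The element was in its promoter at chr1:55087883-55088182 and not in that at chr1:55088194-55088493. The stretch of Hspd1 and Hspe1 lies within an Hspd1 exon of the annotation, and that of Hsph1 lies after its start, within an exon.
Hspd1, chr1:55088054-55088081, minus strand: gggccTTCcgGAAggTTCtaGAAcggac
Hspe1, chr1:55088054-55088081, plus strand: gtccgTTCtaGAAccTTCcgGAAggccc
Hsph1, chr5:149636288-149636305, minus strand: gcagaTTCtgGAAagTTC

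Collection time was compared within each day, ZT16 over ZT4, in 28 pairs of a class and a day. Of 314 measured pairs of a cytosolic gene and a class, 58 were called higher at ZT16 and 11 lower. Over all genes 7.38% were higher and 7.76% lower. The higher calls were uneven over the cytosolic genes. Hsph1 was called higher in 16 of 24, Hspb1 in 10 of 24 and Hspa8 in 9 of 28. Hspa1b, Hsp90ab1 and Bag3 were called higher in 0. ER genes were called higher in 73 and lower in 25 of 553 pairs against the same background. Collection time is 1 library against 1 on each day, so it cannot be told apart from any other difference between those libraries. The day 1 libraries had median depths of 3172 UMIs at ZT4 and 4671.5 at ZT16, while those of day 0 had 5008.5 and 4831 and those of day 3 had 11068 and 11128.

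Hsph1 encodes Hsp110, the exchange factor that recharges Hsp70, and was above 0 in 22 of the 24 comparisons in which it was measured. It was called higher in 16 and lower in 1, with a median log2 ratio of 0.92. On day 0 it was above 0 in 9 of 9 classes, on day 1 in 5 of 7 and on day 3 in 8 of 8. In day 0 resident macrophages it went from 27.5 CPM (ZT4) to 79.9 CPM (ZT16), a log2 ratio of 1.54 (1.28 to 1.80). In day 0 fibro-adipogenic cells it was at 41.5 and 86.2 CPM, and in day 0 endothelial cells at 17.1 and 35.7 CPM. Day 3 monocyte-macrophages had 10.1 and 26.8 CPM and day 3 dendritic cells 11.7 and 33.4 CPM. The highest ratio, 2.32 (1.35 to 3.65) in day 3 T cells, rested on 8 and 81 UMIs. The ratio was smallest on day 0 in myogenic cells, with 46.0 and 60.4 CPM and a log2 ratio of 0.39 (0.17 to 0.62). Without cells that held G2M genes these levels were 45.8 and 56.5 CPM. The exceptions were fibro-adipogenic cells on day 1, at 144 and 111 CPM, and neutrophils on day 1, called lower from 42 and 22 UMIs.

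Hspa8, the constitutive Hsp70, was above 0 in 24 of 28 comparisons and called higher in 9 and lower in 0. In day 0 endothelial cells it went from 1487 to 2933 CPM, a log2 ratio of 0.98 (0.95 to 1.01), and in day 0 mural cells from 1382 to 2654 CPM. In day 0 myogenic cells it was at 2324 and 2157 CPM, a log2 ratio of -0.11. In endothelial cells Hspa8, Hsph1, Hsp90aa1 and the Hsp70 cochaperone Dnaja1 were 4 of 12 cytosolic genes called higher on day 0 (background 5.20%), and in mural cells these and Hspb1 made 5 of 12 (7.54%). Resident macrophages had Hspa8 and Hsph1 (5.18%), and myogenic cells none of 12 (9.03%). Of the 41 further heat shock genes, 11 of 41 were higher in endothelial and 11 of 41 in mural cells, 9 of 40 in resident macrophages and 2 of 41 in myogenic cells, with none lower in these 4 classes. Stip1, Chordc1, Ahsa2, Fkbp4 and Cacybp, all cochaperones of Hsp70 or Hsp90, were called in each of the first 3. The dissociation list had 5 of 18 genes higher at ZT16 in endothelial cells, 1 in mural cells and 0 in resident macrophages; its part in the result was not tested.

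Hspa1a and Hspa1b, the inducible genes, did not share this pattern. Hspa1a was above 0 in 11 of 26 comparisons, called higher in 1 and lower in 2, and Hspa1b was called higher in 0 and lower in 3. Bag3 was called lower in 1 of 21 and higher in 0, and Dnajb1 was called higher in 4 and lower in 2 of 27. Hspb1 was above 0 in 23 of 24, called higher in 10 and lower in 1, day 0 dendritic cells. In day 0 mural cells it went from 1172 to 2602 CPM, but in neutrophils, dendritic cells and both macrophage classes of days 1 and 3 it stayed under 12 CPM. Hspd1 was called higher in 2 of 28, Hspe1 in 5 of 28, Dnaja1 in 5 of 27, Hsp90aa1 in 6 of 27 and Hsp90ab1 in 0 of 28. Of these 5 genes Hsp90ab1 was called lower in 1, mature muscle on day 0, at 675 and 401 CPM, and the others in 0.

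**Figure D5:**
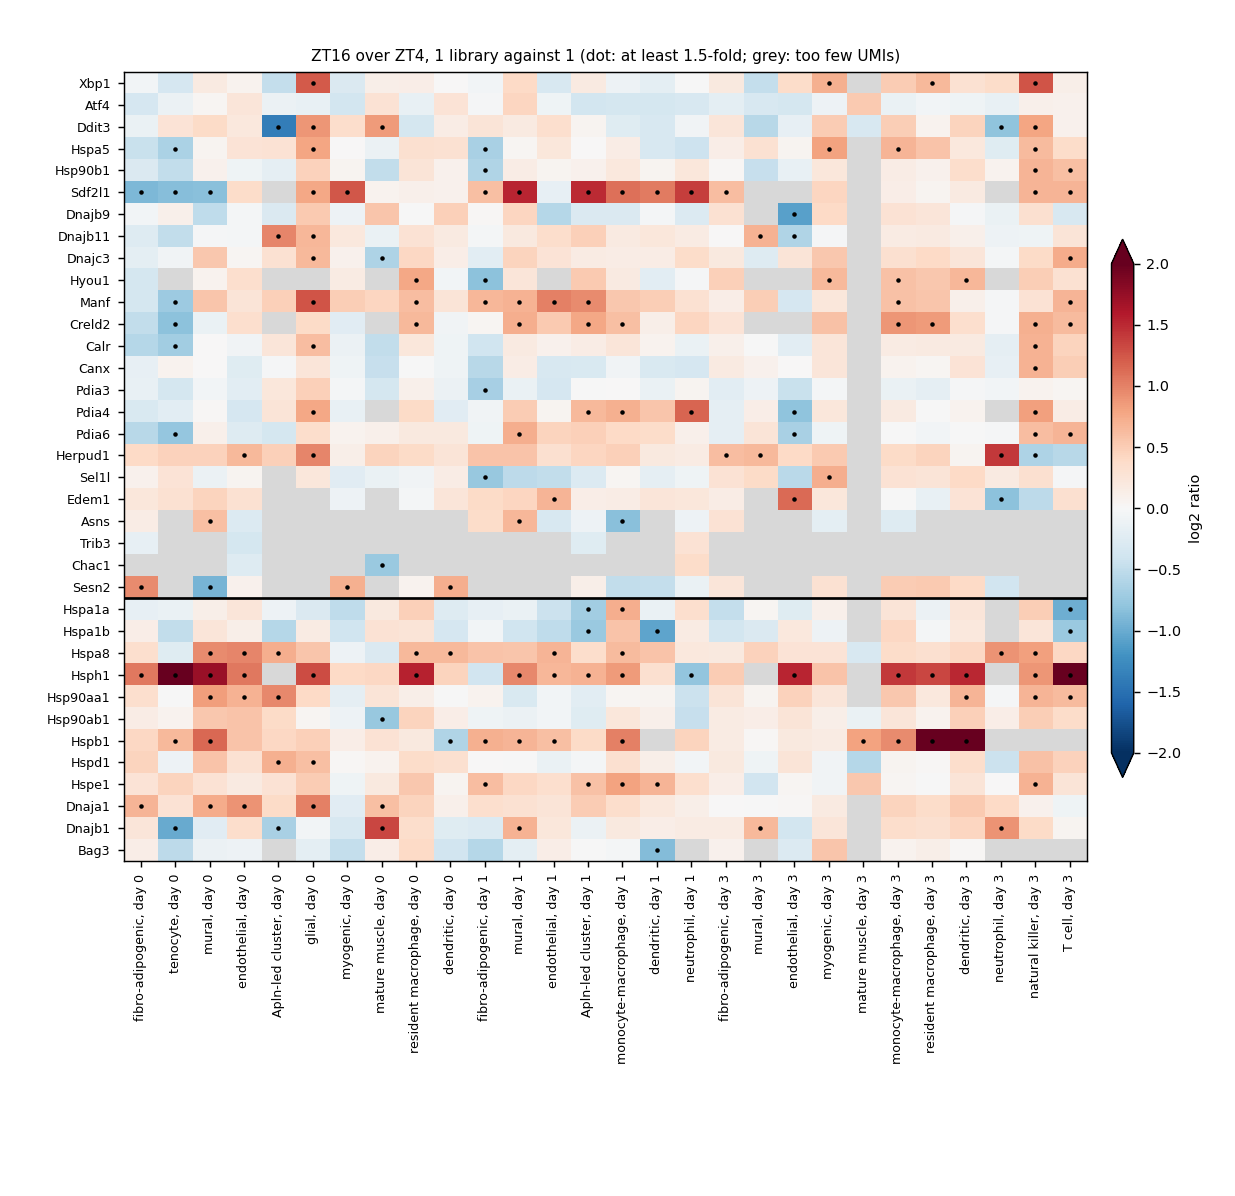
Log2 ratio of ZT16 over ZT4 for each gene (rows) in each class and day (columns), red higher at ZT16; grey cells had under 30 UMIs in both libraries together. The Hsph1 row is red in 22 of 24 columns and the Atf4 row stays pale, with no ratio past 1.5-fold.

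Of the ER transcription factors, Atf4 was called in 0 of 28 comparisons by collection time and was below 0 in 20 of them. Ddit3 was called higher in 3 and lower in 2 of 28, with log2 ratios from -1.39 to 0.88. Xbp1 was called higher in 4 and lower in 0 of 27, 3 of the 4 on day 3, where it was above 0 in 9 of 10. Over all genes 7.38% were higher and 7.76% lower. The genes called most often were Sdf2l1, higher in 11 and lower in 3 of 23, Manf, higher in 8 and lower in 1 of 27, and Creld2, higher in 8 and lower in 1 of 23. Sdf2l1 was called higher in 6 of 7 classes on day 1, with a median log2 ratio of 1.11. In day 1 monocyte-macrophages it went from 108 CPM at ZT4 to 233 CPM at ZT16, a ratio of 1.11 (1.06 to 1.15), and in day 1 dendritic cells from 164 to 336 CPM. On day 0 it was lower at ZT16 in fibro-adipogenic cells, with 41.8 and 22.4 CPM, and also called lower in mural cells and tenocytes. Manf was above 0 in all 7 classes on day 1, for example 288 and 553 CPM in the Apln-led cluster and 339 and 535 CPM in fibro-adipogenic cells. Herpud1 was above 0 in 25 of 27 comparisons, 10 of 10 on day 0, 7 of 7 on day 1 and 8 of 10 on day 3. It was called higher in 5 and lower in 1, day 3 natural killer cells. It went from 143 to 223 CPM in day 0 endothelial cells. Hspa5 was called higher in 4 and lower in 2 of 27.

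By class, day 1 monocyte-macrophages had Sdf2l1, Creld2 and Pdia4 higher at ZT16 and 5 cytosolic genes, Hspa1a, Hspa8, Hsph1, Hspb1 and Hspe1 (background 6.07%), and Asns lower, at 2.31 and 1.30 CPM. Day 1 mural cells had Sdf2l1, Manf, Creld2, Pdia6 and Asns higher, with Hsph1, Hspb1 and Dnajb1 (9.66%). On day 3, monocyte-macrophages had Hspa5, Hyou1, Manf and Creld2 higher with Hsph1 and Hspb1, where only 3.01% of all genes were higher, and Hspa5 was at 431 and 691 CPM there. Day 3 myogenic cells had Xbp1, Hspa5, Hyou1 and Sel1l higher (8.44%), with Hspa5 at 281 and 490 CPM.

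Small classes stood out. Glial cells of day 0, 89 and 115 of them, had 10 of 18 ER genes higher at ZT16 (9.65%), for example Manf at 199 and 476 CPM and Xbp1 at 96.9 and 230.0 CPM. Dendritic markers in that class summed to 142 CPM at ZT4 and 947 CPM at ZT16. Natural killer cells of day 3, 152 and 98 of them, had 10 of 20 ER genes and 4 of 10 cytosolic genes higher (13%) and Herpud1 lower, and the dendritic markers in them went the other way, from 1503 to 175 CPM. The part of those markers was not tested. Tenocytes of day 0, 87 and 137 of them, had 6 of 19 ER genes lower (7.48%), among them Manf at 308 and 187 CPM and Calr at 547.5 and 337 CPM. Fibro-adipogenic cells on day 1 also had ER genes lower at ZT16, Hspa5, Hsp90b1, Hyou1, Pdia3 and Sel1l, where 15.4% of all genes were lower, and Hspa5 was at 1428 and 909 CPM, while Sdf2l1 and Manf were higher.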

How the data were processed

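Single mononucleated cells of 6 libraries, 1 per day and collection time, were captured with 10x Genomics 3′ v3.1 chemistry. The authors deposited filtered matrices of UMI counts per gene and cell, made with Cell Ranger 6.1.2 per the file headers (1.0.0 per the submitters' processing notes, which also name the build, mm10). No source used here gives the annotation release. The libraries held 72747703 to 132221721 UMIs. Whether a library pools several animals is not stated, so its spread is unknown.

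Cells with at least 200 genes, 500 UMIs and at most 10% mitochondrial UMIs were kept. Doublets were left out by the highest scrublet scores, 0.8% per 1000 barcodes of a library (534 to 1229 cells), because scrublet's own threshold marked only 6 to 739. Cells of all libraries were clustered together with scanpy 1.11.5 and leidenalg 0.10.2 (2000 variable genes, 30 components, 15 neighbours, resolution 1.0), with member genes, related pathway genes and dissociation genes left out. This gave 40 clusters, named from marker lists. The naming limits (at least 3 markers, no stronger other class, depth) and the name of the Apln-led cluster were set after the clusters were seen, and unnamed clusters were left out. Cluster 11 kept its endothelial name although its depth was below that of a cluster left unnamed for depth.

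Counts were summed per class and library where a class had at least 50 cells, and divided by the class total. Ratios had 0.5 UMI added to each count, with exact conditional binomial 95% intervals; levels have exact Poisson intervals. UMIs of the 2 Ddit3 models were summed. Comparisons had 1 library per group, so no test was run; the ratio script was tested on simulated data. Between days a member was called only when both collection times passed 1.5-fold. The naming rule took up to 12 members past 1.5-fold per direction and up to 4 genes of each other list, with levels for the members called most often and for Hspa5, Xbp1, Atf4, Ddit3, Hspa1a, Hspa1b, Hspa8, Hsp90aa1 and Hspb1. The other members given by level, and the genes named from the other lists, were chosen after their values were seen. Python 3.11.15, numpy 2.4.6, scipy 1.17.1, pandas 2.3.3 and matplotlib 3.10.9 were used. For each comparison 16 alternatives were run. The members, lists and rules were chosen with earlier results of these data known. Gene positions are from GENCODE on GRCm38 and promoters from RefSeq on GRCm38.p6.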

Additional observations from a re-analysis of the deposited data

Results flagged for a closer look

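Some members were called higher in one class and lower in another under the same comparison, at both collection times; the difference between the classes was not tested. Values are means of the ZT4 and ZT16 log2 ratios.

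On day 1 against day 0, Xbp1 was at 1.14 in mural and -0.75 in fibro-adipogenic cells, a difference of 1.90. Bag3 was at 0.93 in mural and -1.80 in dendritic cells, a difference of 2.73. On day 3 against day 0, Hsp90b1 was at 1.02 in myogenic and -0.72 in dendritic cells, a difference of 1.74. Myogenic cells and resident macrophages differed by 2.49 in Hsph1, at 0.89 and -1.59, and by 2.37 in Hsp90aa1, at 1.09 and -1.28. Both myogenic values were below 0 in cells without G2M genes. The dendritic, fibro-adipogenic, myogenic and resident macrophage classes were made up mostly of other clusters on day 0 than on the later day.

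On day 3 against day 1, some members called higher in neutrophils were called lower in monocyte-macrophages or dendritic cells. In neutrophils 36% of all genes were called higher, and the median over all genes was 0.59. The differences given here are not centred on that median. The fall of the neutrophil markers in this class is given above, and its part was not tested. The difference from dendritic cells was 1.90 for Hsp90b1, 1.95 for Calr and 2.17 for Pdia6. The difference from monocyte-macrophages was 1.66 for Dnajc3, 2.30 for Hyou1, 2.68 for Manf, 2.98 for Creld2, 3.28 for Pdia4, 3.77 for Hsph1 and 2.67 for Hspd1. The day 3 neutrophil values of Hyou1 and Hsph1 rested on 15 and 7 UMIs and on 7 and 8 UMIs.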

How the results depend on the processing

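No paired analysis was possible because each group had 1 library, so no library could be left out within a group either. Over 16 alternatives, 238 summed counts stayed within 1.5 times of the reported count and 34 did not; of counts in single classes 687 did and 105 did not, and of single ratios 4896 moved by less than their interval, 519 by more and 13 changed sign. The cause was not tested except where an alternative left fewer classes or genes. The backgrounds given above hold for the reported settings only. The counts below have no share of all genes at the same setting beside them. They show how far a count moved, and not whether it differed from that share.

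A 2-fold threshold gave 13 higher and 2 lower ER pairs and 17 higher and 2 lower cytosolic pairs for ZT16 over ZT4. It gave 20 higher and 0 lower ER pairs on day 1 against day 0, 10 higher and 9 lower ER pairs and 2 higher cytosolic pairs on day 3 against day 0, and 2 higher and 8 lower ER pairs and 1 lower cytosolic pair on day 3 against day 1. At least 100 UMIs per gene left 15 lower ER pairs by collection time, no minimum gave 59, and Hsph1 was called higher in 10 of 17 comparisons at 100 UMIs. Resolution 2.0, with 3 classes left on day 1 against day 0, gave 25 higher and 3 lower ER pairs and 3 higher and 9 lower cytosolic pairs. Leaving out the cells highest in dissociation genes, which also left 3 classes, gave 17 higher ER pairs there and 14 on day 3 against day 0, with 5 classes. Centring, and leaving out mitochondrial and ribosomal genes, gave 3 lower ER pairs on day 1. At most 5% mitochondrial UMIs gave 9 higher cytosolic pairs on day 1, with 4 classes.

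Without cells with G2M genes, 8 ER and 3 cytosolic pairs were higher on day 3 against day 0, and 18 cytosolic pairs were lower by collection time. Thinned cells gave 8 higher ER and 15 lower cytosolic pairs on day 3 against day 0, and 7 higher cytosolic pairs on day 3 against day 1, as did subtracting 5% free RNA. Libraries clustered alone gave 13 higher cytosolic pairs on day 3 against day 0. On day 3 against day 1, 3 ER pairs were higher with doublets kept and 2 with centring.

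Ratios that changed sign were, for ZT16 over ZT4, Hspb1 in day 0 dendritic cells (0.0486, doublets kept), Dnajb1 in tenocytes (1.17) and Hspa1b in day 1 dendritic cells (0.0766, both without the cells highest in dissociation genes), Creld2 in the day 1 Apln-led cluster (-0.34), Dnajb1 in day 1 mural cells (-0.0217) and Hspa1b in day 3 T cells (0.23), all thinned, Hsph1 in day 1 endothelial cells (-0.27, resolution 2.0), Hspb1 in day 1 fibro-adipogenic cells (-0.15, without G2M cells) and Dnajb11 in day 3 mural cells (-0.59, mean over cells). Between days they were Hsp90b1 (-0.12), Hsph1 (-0.0653) and Hsp90aa1 (-0.0627) in day 3 myogenic cells without G2M cells, and Hyou1 in neutrophils (-0.0335, without the cells highest in dissociation genes). Depth limited the low members: of 28 comparisons by collection time, Chac1 reached 30 UMIs in 3, Trib3 in 4 and Asns in 12.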
